A study of Rattus norvegicus with 6 samples.

Results

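Eicosanoids are lipid mediators made from arachidonic acid, and the mRNAs of 10 genes that make or sense them were examined in the spinal cord of rats with bone cancer pain (BCP). The 10 genes encode the cyclooxygenases Ptgs1 and Ptgs2, the prostaglandin synthases Ptges, Ptgds and Hpgds, the leukotriene proteins Alox5, Alox5ap and Ltc4s, and the prostaglandin E2 receptors Ptger2 and Ptger4. They were taken by gene symbol from a table of 30957 genes, and each symbol matched 1 row. RNA was sequenced from the lumbar enlargement, on the side of the injected tibia, of female Wistar rats on day 14, which gave 3 BCP and 3 sham libraries. BCP rats carried living Walker 256 cells, a rat mammary carcinoma line, in the marrow cavity of the left tibia, and sham-operated rats had been given the same cells after heat killing. Both groups therefore had the tibia punctured and cells injected, no untouched rats were sequenced, and the meninges had been peeled from the cord in both. The rats were adult, with no exact age given in the sources used here, nor is it given whether each library came from 1 rat, so that the p-values below measure only the spread between these libraries, which may be technical. Counts on genes ranged from 11779485 to 15004290 per library, and 14908 genes had enough counts to be tested.

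Phospholipase A2 enzymes release arachidonic acid from membranes. Cyclooxygenases turn it into prostaglandin H2, which terminal synthases convert into prostaglandins E2 and D2, prostacyclin or thromboxane A2. In a separate branch, 5-lipoxygenase and its membrane partner, the 5-lipoxygenase activating protein, start the synthesis of leukotrienes. Prostaglandin E2 made in the spinal cord is known as a mediator of inflammatory pain, and cyclooxygenase inhibitors are common analgesics.

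The stretch of 250 bases before the transcription start is shown for the 4 genes whose change passed both thresholds used below and that the RefSeq table of promoters holds, since Ptgs2, Ptger2 and Ptger4 were higher in BCP rats and Alox5 was lower. The sequences and their coordinates are those of RefSeq on the build GRCr8, whereas all other coordinates are on Rnor_6.0, the build of the deposited files. Of the 10 genes 8 matched this table, and Hpgds and Alox5ap did not. Each is given 5′ to 3′ on the strand of the gene, and capitals mark matches to the motifs listed after them.
Ptgs2, chr13:64713813-64714062, plus strand: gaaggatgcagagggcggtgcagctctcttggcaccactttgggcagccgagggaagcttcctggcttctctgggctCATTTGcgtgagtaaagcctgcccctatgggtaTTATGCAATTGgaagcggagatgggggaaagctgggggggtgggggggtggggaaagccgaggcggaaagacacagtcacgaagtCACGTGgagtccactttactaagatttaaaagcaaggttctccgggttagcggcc
Ptger2, chr15:20696796-20697045, plus strand: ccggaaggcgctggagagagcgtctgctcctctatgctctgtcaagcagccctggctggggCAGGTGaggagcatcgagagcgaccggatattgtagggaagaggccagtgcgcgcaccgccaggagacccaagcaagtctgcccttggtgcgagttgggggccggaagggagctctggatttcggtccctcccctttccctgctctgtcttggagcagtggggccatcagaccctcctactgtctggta
Ptger4, chr2:56073523-56073772, minus strand: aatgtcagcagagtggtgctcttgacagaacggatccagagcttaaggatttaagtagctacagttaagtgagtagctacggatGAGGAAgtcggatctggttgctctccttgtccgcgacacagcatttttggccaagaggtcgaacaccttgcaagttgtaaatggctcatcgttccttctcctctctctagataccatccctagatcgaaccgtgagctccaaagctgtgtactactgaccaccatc
Alox5, chr4:151251127-151251376, minus strand: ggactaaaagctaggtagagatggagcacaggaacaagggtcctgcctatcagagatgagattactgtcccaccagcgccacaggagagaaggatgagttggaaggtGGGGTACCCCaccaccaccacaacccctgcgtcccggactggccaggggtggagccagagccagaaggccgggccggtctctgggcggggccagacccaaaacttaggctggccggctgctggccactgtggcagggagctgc
Both strands were searched for TATAAA, for CGTCA (a core of the cAMP response element), for GAGGAA (an ETS core), for TTNNGNAA (a C/EBP site), for CANNTG (an E-box) and for the NF-kB site. Of 27457 promoters of the same length, 13.1% held TATAAA, 19.0% held CGTCA, 23.2% held GAGGAA, 36.8% held TTNNGNAA, 65.2% held CANNTG and 5.23% held the NF-kB site. The Ptgs2 sequence held a C/EBP match 140 to 133 bases before the start that overlapped an E-box at 135 to 130, and 2 further E-boxes at 173 to 168 and 55 to 50 bases. Ptger2 held an E-box at 189 to 184 bases, Ptger4 an ETS core at 166 to 161 bases and Alox5 an NF-kB match at 143 to 134 bases. No motif was shared by all 3 of the up-regulated genes shown here, and neither TATAAA nor CGTCA was found in the window of any of the 8 genes. These matches describe letters and not binding.

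Levels of different genes were compared per transcript length, as FPKM (fragments scaled by exon length and by the library's total). Ptgds was by far the most abundant of the 10 mRNAs, with 376 ± 10.4 FPKM (SD, n = 3) in sham-operated rats, whereas the next gene in sham-operated rats, Ptgs1, had 2.41 ± 0.593 FPKM. Of the summed FPKM of the 10 genes, Ptgds made up 97.2%, 97.4% and 97.7% in the sham libraries against 94.7%, 93.1% and 93.0% in the BCP libraries. Without Ptgds, the summed FPKM was 11.2, 9.76 and 8.79 in the sham libraries against 18.5, 22.3 and 23.5 in the BCP libraries. The BCP libraries were thus lower in the share of Ptgds and higher in the sum of the other 9 genes, with no overlap between the groups.

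In sham-operated rats the order by mean FPKM was Ptgds, Ptgs1, Ptgs2, Alox5ap, Ptges, Ptger4, Ltc4s, Alox5, Ptger2 and Hpgds. The ranges of neighbours in this order were apart for Ptgds and Ptgs1, for Alox5ap and Ptges, and for Ptges and Ptger4, and overlapped for the rest. In BCP rats the order was Ptgds, Ptgs2, Alox5ap, Ptgs1, Ptges, Ptger4, Ptger2, Ltc4s, Hpgds and Alox5. Only the ranges of Ptgds and Ptgs2 and of Ptger4 and Ptger2 were apart between neighbours in this second order. Alox5 stood at place 8 in sham-operated rats, at 0.656 ± 0.206 FPKM, and at place 10 in BCP rats, at 0.317 ± 0.092 FPKM.

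**Figure D1:**
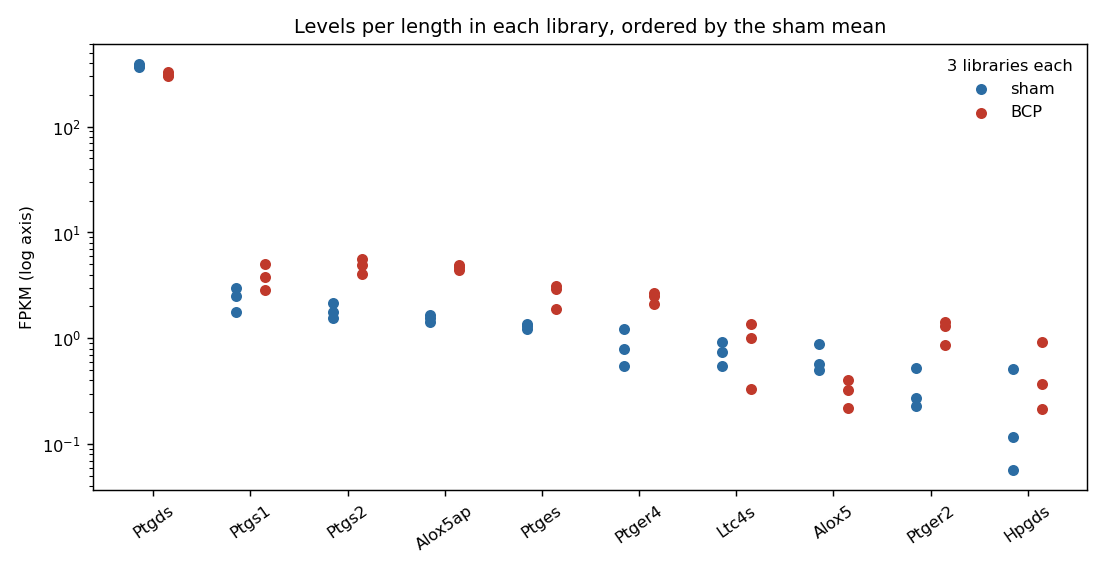
FPKM (log axis) of the 10 genes in each of 3 sham (blue) and 3 BCP (red) libraries, with the genes in the order of the sham mean and 1 point per library. Ptgds lies above 300.0 FPKM in every library and all other genes lie below 6 FPKM.

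Changes between groups were tested on counts, and the normalized values are CPM (counts scaled by the library's total after TMM normalization). A gene was called when its Benjamini-Hochberg adjusted p in edgeR's quasi-likelihood test was under 0.05 over all tested genes and its fold change was over 2. Of the 10 genes, 4 were called up-regulated in BCP rats, namely Ptgs2, Alox5ap, Ptger2 and Ptger4, against a background of 6.35% of all tested genes. Alox5 was the only one called down-regulated, against a background of 0.107%. Ptgs1, Ptges and Ptgds passed the adjusted p but not the fold threshold, and Hpgds and Ltc4s had too few counts for the test. Ptger2 passed the filter on low counts only through the BCP libraries, since 3 of 3 BCP but 1 of 3 sham libraries reached 0.737 CPM. In a fit with no filter, which covered all 10 genes, the same 4 genes were called up-regulated and the same 1 down-regulated, against backgrounds of 5.18% and 0.179%, and the median log2 fold change was 1.05 for the 10 genes and -0.004 for the 20645 genes fitted. Every BCP library was above every sham library in CPM for 5 of the 10 genes, against 21.7% of tested genes, and below for 2 of the 10, against 19.8%. The RNA came from whole tissue, so that fewer cells of a type and less RNA per cell cannot be told apart.

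**Figure D2:**
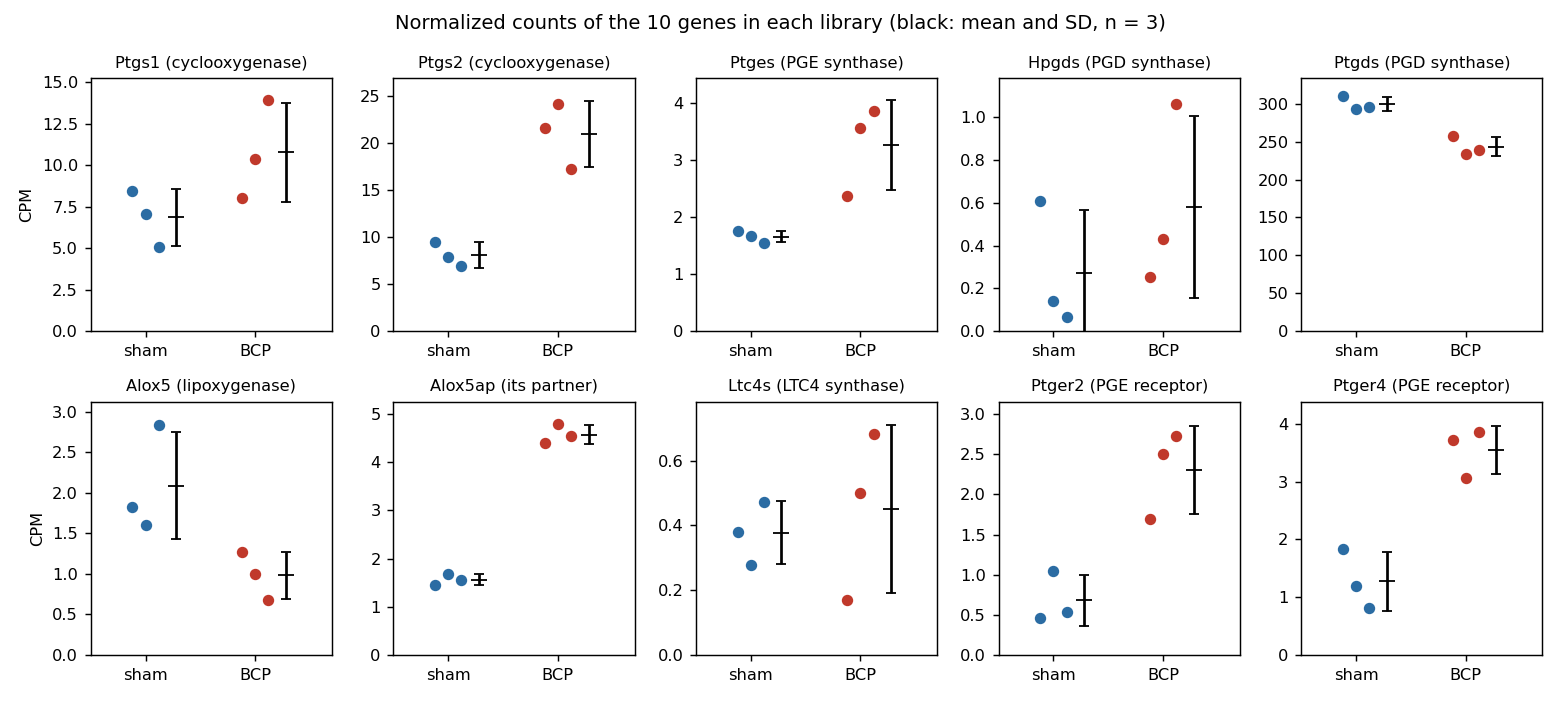
Normalized counts (CPM, linear axes from 0) of each of the 10 genes in 3 sham (blue) and 3 BCP (red) libraries, with 1 point per library and the mean and SD of the 3 libraries in black. Alox5ap, Ptgs2, Ptges, Ptger2 and Ptger4 are higher in every BCP library than in any sham library, Ptgds and Alox5 are lower, and Ptgs1, Hpgds and Ltc4s overlap.

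Ptgs2 (ENSRNOG00000002525, chr13:67351087-67359335) encodes the inducible cyclooxygenase. Its counts were 125, 113 and 102 in the sham libraries against 255, 338 and 228 in the BCP libraries, or 9.52, 7.88 and 6.89 CPM against 21.5, 24.1 and 17.2 CPM. The lowest BCP library lay well above the highest sham library. Ptgs2 was up-regulated 2.60-fold (log2 fold change 1.38, SE 0.15, 95% confidence interval 1.07 to 1.68, edgeR adjusted p = 6.91e-07), the smallest adjusted p of the 8 genes tested.

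Ptgs1 (ENSRNOG00000007415, chr3:15560712-15582344) encodes the cyclooxygenase that many cells make constantly. Counts of Ptgs1 were 111, 101 and 75 in the sham libraries against 95, 145 and 184 in the BCP libraries, or 8.46, 7.05 and 5.06 CPM against 8.02, 10.4 and 13.9 CPM. BCP library 1 fell within the range of the sham libraries, and BCP library 3 was the highest. Its log2 fold change was 0.66 (SE 0.22, 95% confidence interval 0.19 to 1.13, edgeR adjusted p = 0.0379), past the adjusted p without reaching 2-fold, against a background of 15.8% of tested genes that passed the adjusted p with higher values in BCP rats. Without BCP library 3 the log2 fold change of Ptgs1 was 0.43 with an adjusted p of 0.163 in edgeR, and the call at the adjusted p was also lost without sham library 2 (0.122), sham library 3 (0.111) or BCP library 2 (0.0936).

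The ratio of Ptgs2 to Ptgs1 in FPKM was 0.722, 0.717 and 0.872 in the sham libraries against 1.72, 1.49 and 0.794 in the BCP libraries. In BCP libraries 1 and 2 the mRNA of the inducible enzyme thus exceeded that of the constitutive enzyme, while BCP library 3 fell within the sham range. The intervals of the 2 log2 fold changes overlapped, and the difference between them was not tested.

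Ptges (ENSRNOG00000006320, chr3:9727408-9738752) encodes the microsomal prostaglandin E synthase that works with Ptgs2. Its counts were 23, 24 and 23 in the sham libraries against 28, 50 and 51 in the BCP libraries, or 1.75, 1.67 and 1.55 CPM against 2.37, 3.57 and 3.86 CPM. All BCP libraries were above all sham libraries, with BCP library 1 the closest to them. The fold change was 1.98 (log2 0.98, SE 0.27, 95% confidence interval 0.41 to 1.55, edgeR adjusted p = 0.00964), just under the fold threshold. Ptges was at 1.31 ± 0.076 FPKM in sham-operated rats and 2.64 ± 0.659 FPKM in BCP rats (SD, n = 3). Without BCP library 3 its adjusted p in edgeR was 0.0602.

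Prostaglandin D2 is made by Ptgds, the lipocalin-type synthase that is abundant in the central nervous system, and by Hpgds, the hematopoietic type found in mast cells and microglia. Ptgds (ENSRNOG00000015550, chr3:2686123-2689084) had 4075, 4196 and 4386 counts in the sham libraries against 3049, 3275 and 3161 counts in the BCP libraries, or 310.5, 293 and 296 CPM against 258, 234 and 239 CPM. Every BCP library was below every sham library. The decrease was 1.23-fold (log2 fold change -0.30, SE 0.05, 95% confidence interval -0.40 to -0.20, edgeR adjusted p = 6.48e-05), small but with the narrowest interval of the 8 genes tested, and 12.1% of tested genes passed the adjusted p with lower values in BCP rats. Hpgds (ENSRNOG00000006583, chr4:95946025-95970666) had 8, 2 and 1 counts in the sham libraries against 3, 6 and 14 in the BCP libraries, and the groups overlapped. In the fit with no filter its log2 fold change was 1.13, with an interval of -0.32 to 2.58 (edgeR adjusted p = 0.319), so that a difference was not detectable at this depth.

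Markers of cells in which these 2 synthases are known did not all move in 1 direction. Of 16 tested microglial markers 10 were called up-regulated, against 6.35% of all tested genes, with a median log2 fold change of 1.43. Of the 7 oligodendrocyte markers examined, such as Mbp and Mog, 7 of 7 passed the adjusted p with lower values in BCP rats. None of these 7 reached 2-fold, and their median log2 fold change was -0.37. Over all tested genes 12.1% passed the adjusted p with lower values. Of the 10 markers of meninges and fibroblasts 9 were tested and none was called, with Igf2 past the adjusted p at -0.94. Their summed CPM was 200.0 to 236 in the sham and 203 to 265 in the BCP libraries. Pdgfra was the largest part of that sum (mean CPM 98.9 in sham and 106 in BCP libraries), and Col1a1 varied widely in the BCP libraries (47.8 ± 31.5 CPM), so the sum says little about the other markers. Of the 10 mast cell markers, Fcer1a, Tpsb2 and Mcpt1 had no count in any library, Cpa3 had none in the sham libraries and only Kit could be tested (log2 fold change -0.53). Kit had a mean CPM of 22.1 in the sham and 15.4 in the BCP libraries, whereas no other mast cell marker had a group mean above 0.217 CPM (Hdc in BCP libraries). Kit therefore did not follow the rest of its list, and which cells made it was not tested. The part of these cells in the levels of Ptgds and Hpgds was not tested.

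The leukotriene branch showed opposite changes in the enzyme and its partner. Alox5ap (ENSRNOG00000000907, chr12:6854920-6879154), the 5-lipoxygenase activating protein that presents arachidonic acid to the enzyme, had 19, 24 and 23 counts in the sham libraries against 52, 67 and 60 in the BCP libraries, or 1.45, 1.67 and 1.55 CPM against 4.39, 4.78 and 4.54 CPM. Libraries of the same group lay close together and the groups were far apart. Alox5ap was up-regulated 2.92-fold (log2 fold change 1.55, SE 0.24, 95% confidence interval 1.05 to 2.04, edgeR adjusted p = 4.55e-05).

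Alox5 (ENSRNOG00000012972, chr4:148398892-148446303), 5-lipoxygenase itself, had 24, 23 and 42 counts in the sham libraries against 15, 14 and 9 in the BCP libraries, or 1.83, 1.60 and 2.84 CPM against 1.27, 1.00 and 0.681 CPM. All BCP libraries were below all sham libraries, and sham library 3 was the highest. Alox5 was down-regulated 2.14-fold (log2 fold change -1.10, SE 0.35, 95% confidence interval -1.83 to -0.37, edgeR adjusted p = 0.0229), 1 of 16 genes called lower in the whole table. This call did not hold under DESeq2 (adjusted p = 0.0770) and was lost in edgeR without sham library 3 (log2 fold change -0.81, adjusted p = 0.149), BCP library 2 (-1.12, adjusted p = 0.0655) or BCP library 3 (-0.89, adjusted p = 0.117), while the direction was the same in each.

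The ratio of Alox5ap to Alox5 in FPKM was 2.52, 3.32 and 1.74 in the sham libraries against 11.0, 15.2 and 21.2 in the BCP libraries. The lowest BCP ratio was far above the highest sham ratio, which follows from the opposite changes of both mRNAs. Ltc4s (ENSRNOG00000003244, chr10:35737664-35739625), leukotriene C4 synthase, had 5, 4 and 7 counts in the sham libraries against 2, 7 and 9 in the BCP libraries. The groups overlapped, and with no filter the log2 fold change was 0.27 with an interval of -0.99 to 1.52 (edgeR adjusted p = 0.823), an interval that still holds a change of 2-fold.

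Prostaglandin E2 acts on G protein-coupled receptors, of which Ptger2 and Ptger4 raise cyclic AMP. Ptger2 (ENSRNOG00000050968, chr15:19338175-19350210) had 6, 15 and 8 counts in the sham libraries against 20, 35 and 36 in the BCP libraries, or 0.457, 1.05 and 0.540 CPM against 1.69, 2.50 and 2.72 CPM. The highest sham library, library 2, was below the lowest BCP library. Ptger2 was up-regulated 3.35-fold (log2 fold change 1.74, SE 0.37, 95% confidence interval 0.98 to 2.51, edgeR adjusted p = 0.00112), the largest fold of the 8 tested genes, from the fewest counts.

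Ptger4 (ENSRNOG00000013240, chr2:54952821-54963448) had 24, 17 and 12 counts in the sham libraries against 44, 43 and 51 in the BCP libraries, or 1.83, 1.19 and 0.810 CPM against 3.72, 3.07 and 3.86 CPM. All BCP libraries were above all sham libraries. The gene was up-regulated 2.80-fold (log2 fold change 1.48, SE 0.30, 95% confidence interval 0.86 to 2.11, edgeR adjusted p = 0.000736). The ratio of Ptger4 to Ptger2 in FPKM was 5.32, 1.51 and 1.99 in the sham libraries against 2.93, 1.63 and 1.88 in the BCP libraries, so that the balance of the 2 receptors overlapped between groups.

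Other genes of the pathway were read from the same fit, and the list was drawn up with earlier results of these data known. Of 53 genes listed 52 were in the table and 34 were tested. Of these 34, 7 were called up-regulated and none down-regulated, 12 passed the adjusted p with higher and 4 with lower values in BCP rats, and 18 did not pass it. Over all tested genes 6.35% were called up-regulated, 15.8% passed the adjusted p with higher values and 12.1% with lower values, so that the 4 of 34 are near the background. Their median log2 fold change was 0.17, against -0.01 for all tested genes. Slco2a1, Dpep2 and Ptger3 are among the 7 and passed the filter on low counts only through the BCP libraries, since at most 1 sham library reached it.

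Upstream of the cyclooxygenases, Pla2g4a encodes the cytosolic phospholipase A2 that frees arachidonic acid, and its gene (chr13:66988937-67206693) ends 144394 bases before Ptgs2. Its counts were 170, 185 and 163 in the sham libraries against 335, 424 and 413 in the BCP libraries, with no overlap. Pla2g4a was up-regulated 2.44-fold (log2 fold change 1.29, SE 0.10, edgeR adjusted p = 6.94e-09). It was the only 1 of 12 tested phospholipase A2 genes that was called, while Pla2g15 (log2 fold change 0.49) and Pla2g16 (0.35) passed the adjusted p with higher values, Pla2g6 (-0.31) and Pla2g7 (-0.70) with lower values and the other 7 did not pass. Pla2g7, which degrades platelet-activating factor, had the highest level of this list in sham-operated rats, at 66.6 ± 12.2 FPKM, and 42.1 ± 1.96 FPKM in BCP rats. In BCP rats Pla2g16 was the highest, at 48.1 ± 4.86 FPKM, against 36.7 ± 5.95 FPKM in sham-operated rats.

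Among the other terminal synthases, Tbxas1, the thromboxane A2 synthase, had the largest fold of all pathway genes tested. Its counts were 30, 40 and 45 in the sham libraries against 161, 193 and 204 in the BCP libraries, far apart. Tbxas1 was up-regulated 5.24-fold (log2 fold change 2.39, SE 0.17, edgeR adjusted p = 1.41e-09). Ptges3, the cytosolic prostaglandin E synthase and a cochaperone, was much more abundant, at 69.6 ± 3.33 and 81.9 ± 0.596 FPKM in sham and BCP rats, with a log2 fold change of 0.19 (edgeR adjusted p = 0.00715). Ptges2 did not pass the adjusted p.

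For clearance, Slco2a1 encodes the prostaglandin transporter, which takes prostaglandins into cells. Its counts were 8, 10 and 24 in the sham libraries against 51, 63 and 61 in the BCP libraries. The groups did not overlap, and the log2 fold change was 2.17 (SE 0.31, edgeR adjusted p = 1.88e-05). Ptgr2, a prostaglandin reductase, was the most abundant gene of this list, at 25.1 ± 1.23 and 21.6 ± 1.03 FPKM in sham and BCP rats, and had a log2 fold change of -0.26 (edgeR adjusted p = 0.00363). Hpgd, the dehydrogenase that inactivates prostaglandins, had a log2 fold change of 0.78 and did not pass (edgeR adjusted p = 0.0615).

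Of the other lipoxygenases 3 of 6 were tested. Alox12, the 12-lipoxygenase, had 13, 13 and 15 counts in the sham libraries against 24, 44 and 40 in the BCP libraries and was up-regulated (log2 fold change 1.49, SE 0.31, edgeR adjusted p = 0.000943). Alox15 had 15, 22 and 19 counts against 33, 48 and 63 and was up-regulated as well (1.47, SE 0.29, edgeR adjusted p = 0.000556). Both genes were thus higher in every BCP library, the opposite direction to Alox5. Aloxe3, the most abundant of this list at 2.32 ± 0.410 and 2.32 ± 0.231 FPKM in sham and BCP rats, had a log2 fold change of -0.05 with an interval of -0.40 to 0.31.

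Downstream of Alox5, Lta4h, the leukotriene A4 hydrolase, passed the adjusted p at a log2 fold change of 0.27 (edgeR adjusted p = 0.0119), and Mgst1 passed at 0.35 (edgeR adjusted p = 0.0149). Mgst3, a microsomal glutathione transferase and the most abundant of this list at 51.3 ± 1.42 and 40.6 ± 8.41 FPKM in sham and BCP rats, passed with a lower value in BCP rats (edgeR adjusted p = 0.0339). Dpep2, a dipeptidase that converts leukotriene D4, was the only one called (counts of 3, 9 and 11 against 22, 22 and 24, log2 fold change 1.67, edgeR adjusted p = 0.00311).

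Of the other receptors of prostanoids 4 of 7 were tested and 1 was called. Ptger3, a receptor for prostaglandin E2 that lowers cyclic AMP, had 4, 10 and 9 counts in the sham libraries against 16, 18 and 22 in the BCP libraries and was up-regulated (log2 fold change 1.39, SE 0.40, edgeR adjusted p = 0.0123). Ptger1 had a log2 fold change of -0.68 (edgeR adjusted p = 0.144), and Ptgfr, the receptor for prostaglandin F2α and the most abundant of this list, had -0.40 (edgeR adjusted p = 0.224). Neither leukotriene receptor that could be tested passed, with 0.96 for Cysltr1 (edgeR adjusted p = 0.122) and -0.50 for Cysltr2 (edgeR adjusted p = 0.442). Ltb4r, a receptor for leukotriene B4, had 0 counts in every library, and a count of 0 allows up to 3 counts, or 0.255 CPM in the smallest library, by counting error only.

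**Figure D3:**
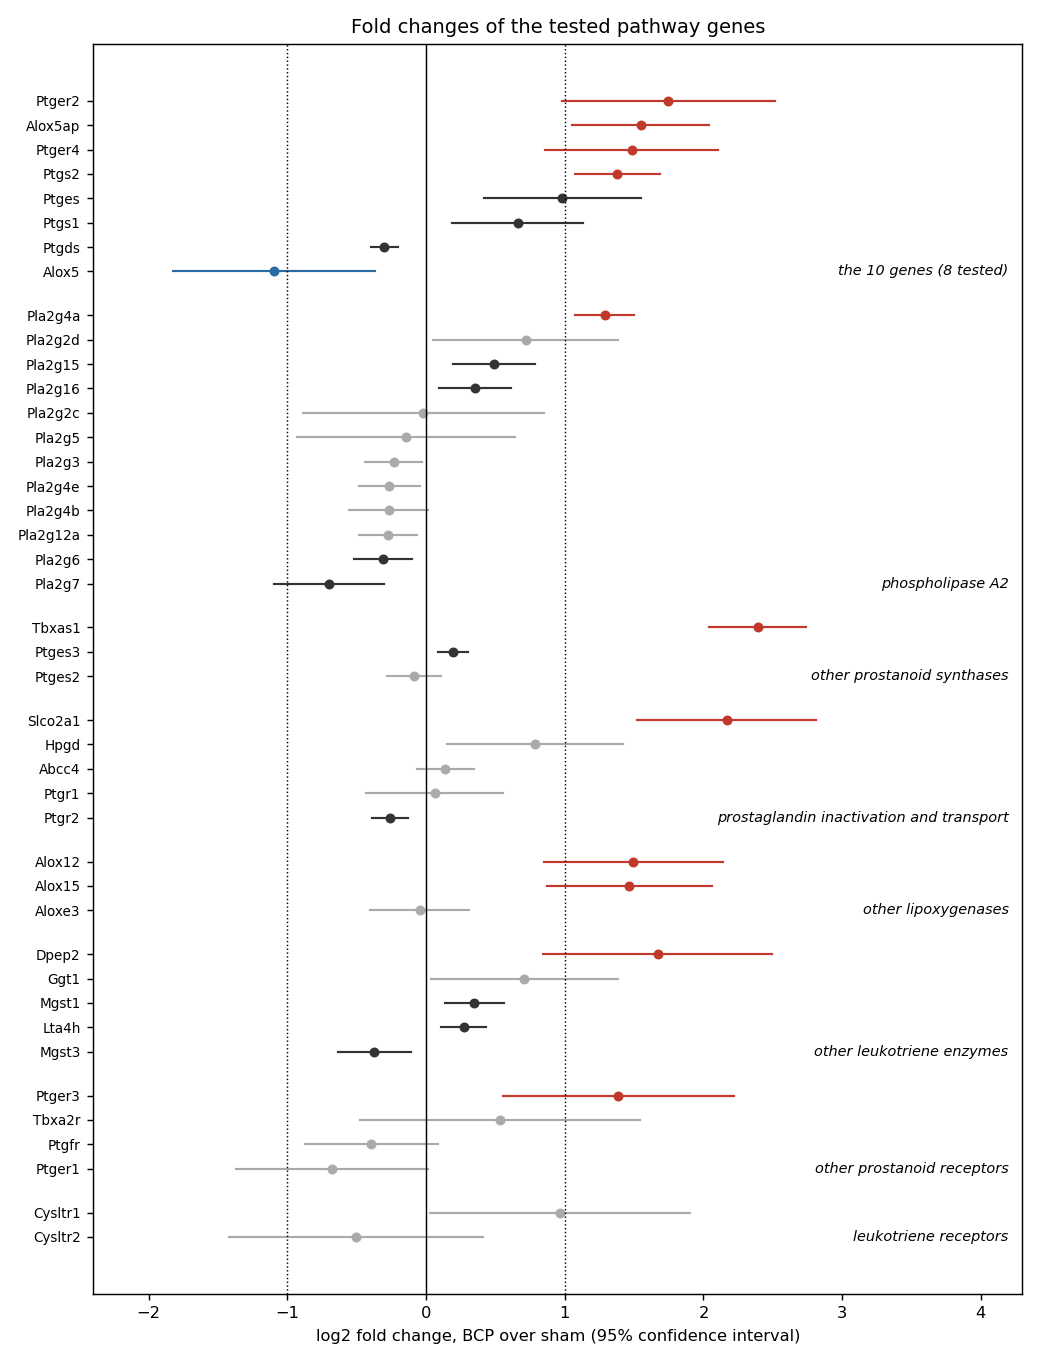
Log2 fold change of BCP over sham (x axis) with its 95% confidence interval for the tested pathway genes, grouped by role, with red for genes called up-regulated, blue for down-regulated, black for those past the adjusted p alone and grey for the rest, and dotted lines at -1 and 1. Red points occur in all groups but the leukotriene receptors, Tbxas1 at 2.39 lies furthest right and Alox5 at -1.10 furthest left.

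The deposited annotation gave a list that did not depend on the choice of genes here, the 70 rows assigned to the KEGG pathway of arachidonic acid metabolism. Of these rows 21 had no counts in any library, many of them cytochrome P450 genes such as Cyp2c11, and 32 were tested. The pathway held 7 of the 10 genes and not Alox5ap, Ptger2 or Ptger4. Without those 7 genes, 27 were tested, of which 5 were called up-regulated (Pla2g4a, Tbxas1, Alox12, Alox15 and Cbr3) and none down-regulated, against 6.35% and 0.107% of all tested genes. All of the 5 but Cbr3 are also among the 7 other pathway genes called above, so these counts are not separate. Of these 27, 9 passed the adjusted p with higher and 2 with lower values, against 15.8% and 12.1% of all tested genes. The median log2 fold change of the 27 was 0.03. Cbr3, a carbonyl reductase, had 10, 16 and 8 counts in the sham libraries against 27, 33 and 20 in the BCP libraries, with a log2 fold change of 1.34 (SE 0.36, edgeR adjusted p = 0.00746). It passed the filter on low counts only through the BCP libraries, since 3 of 3 BCP but 2 of 3 sham libraries reached it.

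Long noncoding RNAs (lncRNAs) within 10 kb of the 10 genes were read from a separate fit over 12157 tested transcripts. There were 15 such lncRNAs near 7 of the genes and none near Alox5, Alox5ap or Ptger2. Only 5 of the 15 had enough counts, and none passed the adjusted p, against a background of 1.97% of tested lncRNAs. None passed at an unadjusted p under 0.05 or under DESeq2, and the log2 fold changes ran from -0.37 to 0.11 with a lowest edgeR adjusted p of 0.618. The nearest one tested, NONRATT020526.2, lies 4930 bases from Hpgds (log2 fold change 0.11, interval -0.68 to 0.90, edgeR adjusted p = 0.939). NONRATT015059.2, which lies 8581 bases from Ptger4, had 207, 191 and 245 counts in the sham libraries against 183, 233 and 204 in the BCP libraries (log2 fold change 0.09, interval -0.17 to 0.36, edgeR adjusted p = 0.814). The groups overlapped at this lncRNA, although Ptger4 itself was higher in every BCP library. The lncRNAs that overlap the genes themselves had too few counts, for example 1, 1 and 3 against 2, 3 and 2 for NONRATT008294.2 at Ptgs2. Other such transcripts lie in Ptgs1, Ptges and Ltc4s, and since the use of strand in counting is not given in the sources used here, reads of a gene and of an overlapping lncRNA cannot be told apart.

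Markers of several immune cell types differed between the groups, and their part in the levels above was not tested. The microglial markers had a summed CPM of 452 to 567 in the sham against 1284 to 1562 in the BCP libraries, with Siglech at 0. The T cell markers had a summed CPM of 6.08 to 6.77 against 52.6 to 60.6, but 7 of the 8 tested passed the filter on low counts only through the BCP libraries, so that their calls carry no weight as a count. Cd4, which rat microglia and macrophages also make, was the exception and was called up-regulated (log2 fold change 2.10). Cd4 was also the largest part of the T cell sum, with a mean CPM of 5.09 in sham and 21.9 in BCP libraries. Of the markers of monocytes and macrophages 1 of 8 was called, Plac8, and 6 did not pass the adjusted p, with a median log2 fold change of 0.04. Their summed CPM was 410.3 to 431 against 591 to 661, of which Plac8 (mean CPM 3.12 against 98.9) and Fn1 (154 against 236) made up most of the difference, while Cd163 (-0.27), Lyve1 (-0.52), F13a1 (-0.15), Chi3l1 (-0.04) and Mrc1 (0.17) had small log2 fold changes that did not pass. The neutrophil marker Csf3r was called up-regulated, with 8.64 to 10.1 against 29.7 to 34.2 CPM for the list and Ltf at 0. Csf3r made up most of that sum in BCP libraries (mean 28.4 CPM). The highest mean there among the other neutrophil markers was 1.26 CPM, for S100a8. Mpo, Elane, Camp, Cxcr2, Np4 and S100a9 had too few counts for a test, so the sum says little about them. S100a8 and the platelet marker Itga2b were also called up-regulated, and both passed the filter only through the BCP libraries. The platelet list had 0.768 to 1.42 against 6.25 to 8.21 CPM, with Ppbp, Gp9 and Gp5 at 0. Itga2b made up most of the platelet sum in BCP libraries (mean 6.11 CPM). All 4 red blood cell markers were called up-regulated (30.0 to 34.5 against 72.9 to 92.5 CPM). None of the 6 B and plasma cell markers found had enough counts for a test. No marker of neurons, astrocytes or endothelial cells reached both thresholds, but 5 of 10 neuronal markers passed the adjusted p with lower values in BCP rats (Slc32a1 at a log2 fold change of -0.32, for example), and of 8 astrocyte markers 4 passed with lower values and Gfap with a higher value (0.80). Aqp4, another astrocyte marker, varied widely in the BCP libraries (1045 ± 1185 CPM) and did not pass. Of 7 endothelial markers 1 passed with a higher value. Over all tested genes 6.35% were called up-regulated. The adjusted p was passed with lower values by 12.1% of them and with higher values by 15.8%.

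The fold changes were computed again under other settings and with each library left out in turn. Ptgs2 (log2 fold change 1.26 to 1.51), Alox5ap (1.50 to 1.60) and Ptger4 (1.24 to 1.82) passed the adjusted p and 2-fold in all 14 of these alternatives, and Ptger2 (1.54 to 2.19) in all 13 that kept it. Ptgds passed the adjusted p in all 14, at -0.34 to -0.26. When the fold itself was tested against 2-fold, a stricter question than the one above, none of the 8 genes in that test passed. Hpgds and Ltc4s were not in it.

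**Figure D4:**
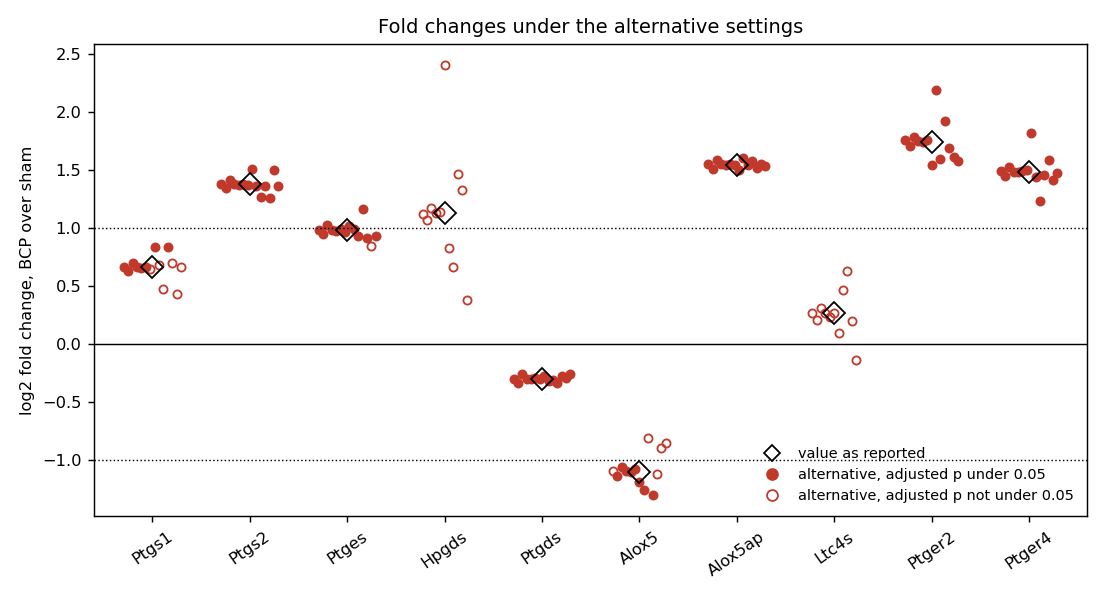
Log2 fold change of BCP over sham (y axis) of the 10 genes as reported (diamonds) and under the alternative settings (circles, filled where the adjusted p was under 0.05), with dotted lines at -1 and 1. Circles of Ptgs2, Alox5ap, Ptger2 and Ptger4 are all filled and above 1, circles of Alox5 are filled only below -1 and open on both sides of it, and Ltc4s has 1 circle below 0.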

How the data were processed

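The 6 strand-specific, rRNA-depleted libraries came from the ipsilateral side of the lumbar cord, and groups and replicate numbers were taken from the labels. Reads were filtered with Seqtk, mapped to Rnor_6.0 with Hisat2 2.0.4 and quantified with Stringtie 1.3.0, per the submitters' processing notes. The authors deposited unnormalized counts per gene and per lncRNA transcript, and FPKM values beside them, with each gene's locus and KEGG annotation. Which program counted the reads, whether it used strand and how it treated reads with several locations are not given in the sources used here. The deposited FPKM values of the 10 genes equal counts divided by total gene counts and by 1 whole length per gene.

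The counts of genes and of lncRNAs were fitted in separate models with edgeR 4.0.16 (R 4.3.3), TMM factors (0.982 to 1.02 for genes), edgeR's filter on low counts at a minimum count of 10 (0.737 CPM in at least 3 libraries), a robust quasi-likelihood fit on condition alone and Benjamini-Hochberg adjustment over all tested rows. Calls needed an adjusted p under 0.05 together with more than a 2-fold change, and tests were two-sided. CPM values use TMM library sizes, and all errors are SD of 3 libraries. Libraries of a group differed by more than counting noise (chi-square per degree of freedom 3.60 to 6.30). The biological coefficient of variation was 7.72%, and at the 1 to 50 counts of several of these genes counting error is larger. The code was tested on simulated counts.

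The 10 genes, the pathway and marker lists and the rule for naming genes were chosen with earlier results of these data known. The rule names all 10 genes, pathway and KEGG genes past both thresholds, the most abundant gene of each list, and the nearest lncRNAs where none passed. For lncRNAs it was followed in part, since only the nearest one tested and examples at Ptger4 and Ptgs2 are named. Alternatives were DESeq2 1.42.0, limma 3.58.1 on log2(FPKM + 0.1), other normalizations and filters, a test against 2-fold, the replicate number as a block, and each library left out. Ggt5 was not found in the table. Of the listed markers 8 were not found there either, and 1 further marker is not reported here. Promoters came from RefSeq. Figures were drawn with matplotlib 3.10.9.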

Additional observations from a re-analysis of the deposited data

How the results depend on the processing

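Of 248 alternative values of 19 results, 221 kept their direction and their call at both thresholds or stayed within 1.5 times the reported count. For genes past the adjusted p but not 2-fold, loss of the adjusted p was not counted as a change. Ptgs1 (edgeR adjusted p = 0.163) and Ptges (edgeR adjusted p = 0.0602), each without BCP library 3, are examples. The number of the 10 genes called down-regulated, 1 as reported, was 0 under DESeq2, 0 with at least 10 counts in every library and 0 in the test against 2-fold, and 0 to 1 with a library left out (0 without sham library 3, BCP library 2 or BCP library 3). The number called up-regulated, 4 as reported, was 0 in the test against 2-fold and 3 to 5 otherwise, with Ptges added or Ptger2 filtered out. The number past the adjusted p with lower values, 2 as reported, was 1 under DESeq2, 1 with at least 10 counts in every library, and 1 to 2 with a library left out. For higher values it was 4 to 6 with a library left out. Other pathway genes called up-regulated numbered 4 with at least 10 counts in every library, against 7. With the members it holds included, the KEGG pathway had 1 gene called down-regulated, which is Alox5 again. That number was 0 under DESeq2, 0 with at least 10 counts in every library, and 0 to 1 with a library left out. The stricter filter removes genes with few counts, among them Alox5 and Ptger2. The cause of the other changes was not tested.

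By gene, Alox5 had a log2 fold change of -1.09 under DESeq2 (adjusted p = 0.0770), -0.85 under limma on FPKM (adjusted p = 0.0676) and -1.30 to -0.81 with a library left out. Ptges reached 2-fold with library size as the only normalization (1.02, edgeR adjusted p = 0.00788), without sham library 1 and without BCP library 1, and ran from 0.85 to 1.17 with a library left out. Ltc4s turned to -0.13 without BCP library 3 and ran from -0.13 to 0.63. Hpgds ran from 0.38 to 2.40 and passed in none of 11 alternatives. Over all genes, 946 were called up-regulated and 16 down-regulated, against 649 and 6 with at least 10 counts in every library, 961 and 11 under DESeq2, and 1015 and 33 without BCP library 1.

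Deviations from the group mean had correlations of -0.110, 0.054 and -0.035 between samples with the same replicate number. Between samples with different numbers they ran from -0.132 to 0.151, so no pairing by number was seen. With only 3 libraries per group, each centred on the group mean, such correlations cannot exclude a pairing. With the replicate block, 907 genes were called up-regulated and 16 down-regulated, the same 4 and 1 of the 10 genes were called, and Ptgs1 had an edgeR adjusted p of 0.143. Depth limits Hpgds and Ltc4s, at 1 to 14 counts per library, and the leukotriene receptors.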
